A study of Homo sapiens with 15 samples.

Results

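The mitosis and spindle genes described here are 46 genes that act between the end of G2 and the separation of daughter cells, matched by Ensembl gene ID to their symbols among the 58381 genes counted in bulk RNA-seq of VCaP sublines. VCaP is an established human prostate cancer cell line whose growth responds to androgen. The 5 sublines form a branched series of derivations, with 3 libraries each. VCaP-T spent 7 months in medium holding 10 nM testosterone. A further 10 months at 0.1 nM testosterone gave VCaP-CT. VCaP-CT-ER grew out of VCaP-CT under 10 µM of the antiandrogen enzalutamide (ENZ). VCaP-CT-BR grew out of VCaP-CT under the older antiandrogen bicalutamide, and VCaP-CT-BR-ER was obtained when bicalutamide-insensitive cells were further exposed to ENZ. All sublines share the charcoal-stripped serum medium and descent from VCaP-T. The sample labels give 10 nM testosterone in the later step as well, where the methods give 0.1 nM, and a passage of the protocol names ENZ for VCaP-CT-BR too, whose group here follows its own sample labels. Each subline is a single derivation, so treatment, time in culture and the cells that happened to grow out cannot be told apart, and p-values measure the spread between 3 libraries of a subline only. Below, "at low testosterone", "with ENZ", "with bicalutamide" and "the second ENZ step" are names for comparisons of sublines (VCaP-CT with VCaP-T, VCaP-CT-ER and VCaP-CT-BR each with VCaP-CT, and VCaP-CT-BR-ER with VCaP-CT-BR) and not statements of cause.

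Entry into mitosis is driven by the kinase CDK1 bound to a B-type cyclin, CCNB1 or CCNB2, which is switched on by the phosphatases CDC25B and CDC25C and reinforced by the kinase PLK1. A bipolar spindle is then built by AURKA, TPX2 and motor proteins of the kinesin family, kinetochores attach chromosomes to its microtubules, and the checkpoint kinases BUB1 and TTK hold the cell until every chromosome is attached. CDC20 and UBE2C then direct the anaphase-promoting complex, a ubiquitin ligase, to destroy cyclin B and securin (PTTG1), and separase (ESPL1) cuts the links between sister chromatids. Most of these transcripts peak in G2 and M phase, with FOXM1 among the activators of their transcription. In prostate cancer they are widely used as readouts of proliferation. In bulk RNA, more cells in mitosis and more of these transcripts per cell cannot be told apart.

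The promoters of the genes are shown first. Their sequence was not used to choose the genes. The letters searched were picked as elements of cell cycle promoters, however, so their shares are a description and not independent support. The CCAAT letters are the core of the site bound by NF-Y, and TTTGAA and TTTAAA are the core letters of the cell cycle homology region (CHR) through which DREAM and MuvB complexes act. RefSeq windows on GRCh38.p14, running from 250 bases before to 50 bases after a gene's start, were at hand for 38 of the 46 genes. A single start was taken per gene. These letters were searched on both strands, and a CCAAT may overlap either CHR core. In the 4 stretches below, written 5′ to 3′ on the strand of the gene, the capitals mark these letters or their reverse complements. CCNB1 lies on the plus strand (chr5:69167053-69167135), as do KIF20A (chr5:138179008-138179086) and PTTG1 (chr5:160421742-160421841), and MKI67 lies on the minus strand (chr10:128126433-128126531).

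CCNB1: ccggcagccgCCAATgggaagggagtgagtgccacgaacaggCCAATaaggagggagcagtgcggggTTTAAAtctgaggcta

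KIF20A: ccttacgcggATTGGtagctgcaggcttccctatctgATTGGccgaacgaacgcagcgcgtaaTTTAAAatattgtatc

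PTTG1: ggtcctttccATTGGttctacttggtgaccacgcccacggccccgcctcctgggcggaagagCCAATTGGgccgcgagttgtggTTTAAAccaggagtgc

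MKI67: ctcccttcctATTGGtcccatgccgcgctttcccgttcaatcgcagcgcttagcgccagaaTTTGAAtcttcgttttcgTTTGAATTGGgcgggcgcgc

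These 4 promoters carry CCAAT letters upstream of a CHR core. TTTGAA was found in 26 of the 38 windows (68.4%), against 9.52% of the windows of 12226 tested genes outside the group and 15.4% of all 27305 windows. TTTAAA was found in 36.8% of the windows, against 7.7% of those of the other tested genes and 12.3% of all windows. CCAAT was found in 76.3%, against 36.1% and 35.7%. CCAAT together with either CHR core was found in 25 of 38 windows (65.8%), against 6.18% of the other tested genes and 9.49% of all windows, and 19 of the 38 windows held at least 2 CCAAT, against 13.3% and 11.3%. The other 13 windows lacked CCAAT, a CHR core or both. Among them, CENPE held CHR cores and no CCAAT, BUB1 and NEK2 held CCAAT and no CHR core, and CDC25B, CDC25C and CKAP2 held none of the letters searched. Other starts of these genes were not searched, so letters missing from a window may lie at another start. The CDC25C window covers only the upstream end of the annotated span of the gene. A match of letters is a description and is not evidence that a factor binds there.

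The libraries held between 33665716 and 46935279 counts assigned to genes. Libraries of a subline correlated at 0.9964 or above, and the highest correlation between libraries of different sublines was 0.9865. All 9 prostate luminal markers examined were detected. KLK3, the gene of prostate-specific antigen, had a mean of 3540 CPM (the counts-per-million scale, each count divided by its library total) in VCaP-T and between 14.1 and 533 in the others. Among markers of other cell types, the 5 fibroblast markers summed to between 6.34 and 248 CPM and were highest in both ENZ-exposed sublines. LUM made up nearly all of that, while COL1A2 had no count in any library and COL1A1, COL3A1 and DCN were below 1 CPM on average in the same 2 sublines. The immune markers summed to between 0.0808 and 58.2 CPM, nearly all of it LYZ in VCaP-T, with CD3E at 0, and the endothelial markers summed to between 0.0756 and 16.3 CPM. The mitochondrial share was between 7.18% and 9.561% of counts. The part of these markers and shares in the results below was not tested.

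All but 1 of the 46 genes were expressed at levels that could be tested, with at least 317 counts in every library. The exception was SPC25, a subunit of the NDC80 complex that links kinetochores to microtubules, which had between 0 and 2 counts per library and 5 counts over all 15 libraries, with 11 libraries at 0. Its partners in the same complex were counted in every library, with 895 to 2470 counts for NDC80, 592 to 1893 for NUF2 and 621 to 1673 for SPC24. SPC25 lies at chr2:168834132-168913371 on GRCh38. Its annotated span holds the whole of G6PC2, which had no count, and overlaps NOSTRIN, which had 5 to 250, while nearby CERS6 had 2667 to 5260. Why SPC25 was near 0 was not tested. SPC25 therefore enters the summed levels but none of the tests, and the remaining 45 genes are the ones counted below.

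The group was at its lowest in VCaP-T and higher in every antiandrogen-resistant subline than in VCaP-CT. Summed over the 46 genes, VCaP-T had 3419 ± 216 CPM and VCaP-CT had 3995 ± 114 (SD, n = 3 each, here and in the next sentence). The sum reached 6069 ± 171 for VCaP-CT-ER, while VCaP-CT-BR stood at 7143 ± 257 and its ENZ-exposed descendant VCaP-CT-BR-ER at 7203 ± 162. The 3 libraries of VCaP-T (3180, 3480 and 3600) lay below those of VCaP-CT (3870, 4040 and 4080), which in turn lay below those of VCaP-CT-ER (5890, 6080 and 6230). The libraries of VCaP-CT-BR (6950, 7050 and 7430) and VCaP-CT-BR-ER (7030, 7240 and 7350) overlapped each other and lay above all the rest. The group took 0.3419% of all counts in VCaP-T and 0.7203% in VCaP-CT-BR-ER. VCaP-T had the lowest mean of the 5 sublines for 34 of the 45 genes and VCaP-CT for the other 11. The highest mean was in VCaP-CT-BR for 20 genes, in VCaP-CT-BR-ER for 18 and in VCaP-CT-ER for 7. All 45 genes differed somewhere among the 5 sublines (edgeR quasi-likelihood test, adjusted p under 0.05), but so did 88.9% of the 19621 genes tested, so that count alone does not set the group apart.

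**Figure D1:**
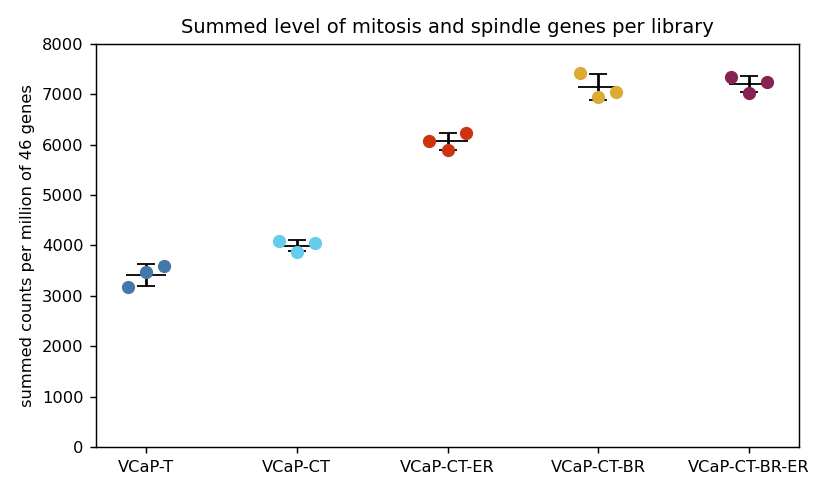
CPM summed over the 46 mitosis and spindle genes (y axis) in each of the 15 libraries, grouped by subline (x axis). Points are libraries, the wide bar is the mean and the whiskers are 1 SD (n = 3). The 3 antiandrogen-resistant sublines lie between 5890 and 7430 CPM, and the 6 libraries of VCaP-T and VCaP-CT between 3180 and 4080.

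Levels compared between genes are given per length, as TPM, which are counts per base of annotated exon scaled so that every library has the same total. On that scale, averaged over the libraries, UBE2C was highest at 232, followed by CCNB1 at 211, TOP2A at 206, NUSAP1 at 176 and TPX2 at 168. The lowest of the tested genes were PRC1 at 7.65, KIF14 at 13.5 and CENPE at 17.1. PRC1, which bundles the microtubules of the spindle midzone, shares 1013 bases of exon with another annotated gene on its strand that received 120.63% of its counts, and reads in the shared part could not be assigned by default counting, so its level is uncertain. The widest spread between sublines was that of CENPE, whose highest mean was 5.35 times its lowest, followed by ASPM (4.32), CCNB1 (3.96), KIF20A (3.86) and CDC25C (3.41). The narrowest were CDC25B (1.27), CENPA (1.49) and CCNB2 (1.51). The plot of each library against VCaP-T shows this range gene by gene.

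**Figure D2:**
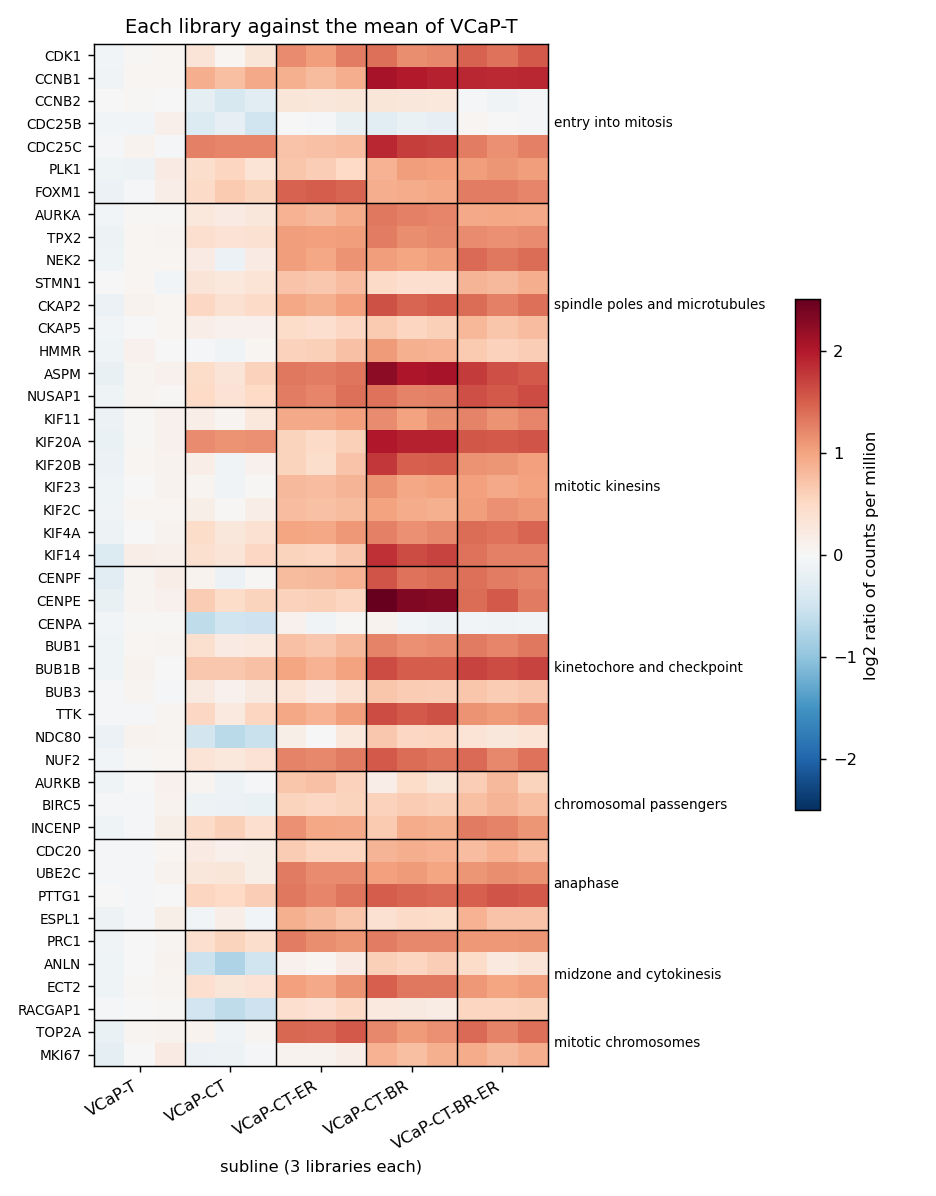
Log2 ratio of CPM in each library (columns, 3 per subline) to the mean of VCaP-T, for the 45 tested genes (rows, ordered by role). Red is higher and blue lower than VCaP-T. CENPE, ASPM, CCNB1 and KIF20A are the deepest red in VCaP-CT-BR, and blue cells are gathered in VCaP-CT, at CENPA, NDC80, ANLN and RACGAP1.

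The step from VCaP-T to VCaP-CT addresses long culture at low testosterone. Here 29 of the 45 genes rose, against a background of 33.1% of all tested genes called higher, and 7 fell, against 32.2% called lower. The median log2 fold change of the group was 0.25, and that of all tested genes was 0.03. The rise was led by CDC25C, KIF20A and CCNB1, and ANLN, NDC80, CENPA and RACGAP1 fell.

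CDC25C, the phosphatase that activates CDK1 at the G2 to M transition, had 27.4, 27.6 and 30.3 CPM in VCaP-T and 66.1, 66.5 and 68.4 in VCaP-CT. The groups did not overlap, and the log2 fold change was 1.25 ± 0.06 (SE, edgeR adjusted p = 1.46e-13). KIF20A, a kinesin of the central spindle needed for cytokinesis, rose from 85.8, 98.2 and 103 to 208, 211 and 218 CPM, a log2 fold change of 1.16 ± 0.06 (SE, edgeR adjusted p = 1.05e-13). CCNB1 rose from 81.2, 89.3 and 89.7 to 146, 163 and 167 CPM, a log2 fold change of 0.88 ± 0.06 (SE, edgeR adjusted p = 1.33e-11). All 3 genes lie on chromosome 5. ANLN, an actin-binding scaffold of the cleavage furrow, moved the other way, from 44.3, 48.1 and 50.6 CPM to 28.1, 32.8 and 33.6, a log2 fold change of -0.59 ± 0.07 (SE, edgeR adjusted p = 3.99e-07). NDC80, the microtubule-binding arm of the kinetochore, had 35.9, 41.8 and 42.3 CPM in VCaP-T and 25.2, 27.3 and 29.2 in VCaP-CT. CENPA, the histone variant that marks centromeres, had 23.8, 25.4 and 25.5 CPM against 16, 17.3 and 17.6. Both fell by 0.54 on the log2 scale, without overlap of the groups, and RACGAP1, which forms the centralspindlin complex with KIF23, fell by 0.53. The genes around these 4 were low as well, with neighbour medians between -0.78 (ANLN) and -0.35 (CENPA), given with the other neighbourhoods further on. In all, 27 of the 45 genes were higher without overlap of the libraries, against 33% of all tested genes, and 7 were lower without overlap, against 33.5%.

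By role, all 7 genes of mitotic entry changed, 5 up and 2 (CCNB2 and CDC25B) down. The spindle pole and microtubule genes had 7 of 9 higher and none lower, the mitotic kinesins 5 of 7 higher and none lower, and the kinetochore and checkpoint genes 6 of 9 higher and 2 lower. TOP2A and MKI67, the genes of mitotic chromosomes, did not pass the threshold, with log2 fold changes of 0.04 and -0.09. MKI67, the proliferation antigen Ki-67, had 165, 195 and 227 CPM in VCaP-T, a spread that held the whole of VCaP-CT (177, 180 and 190), and without the lowest of those VCaP-T libraries it was called lower at -0.21 (edgeR adjusted p = 0.00865). The call for KIF2C was lost without almost any single library, with log2 fold changes between 0.08 and 0.13 in those fits, and in DESeq2. Calls for CDK1 (0.19), CKAP5 (0.10) and KIF11 (0.11) were lost without VCaP-T replicate 1, as were those for CDK1 (0.18) and CKAP5 (0.12) without VCaP-CT replicate 1 and for KIF11 (0.12) without VCaP-CT replicate 3.

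Most of the group was higher in the ENZ-resistant subline than in its starting subline. In VCaP-CT-ER, 37 of the 45 genes were higher than in VCaP-CT, against a background of 29.6%, and 2 were lower, against 31.2%. The median log2 fold change was 0.60 in the group and -0.02 over all tested genes. All 9 spindle pole and microtubule genes rose (median 0.60), as did all 3 chromosomal passenger genes (0.65), all 4 anaphase genes (0.71) and all 4 midzone and cytokinesis genes (0.66). Mitotic entry was the most divided role, with 4 of 7 genes higher, 1 lower and a median of 0.21.

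TOP2A, the topoisomerase that untangles sister chromatids, rose most. It had 258, 289 and 290 CPM in VCaP-CT and 731, 740 and 789 in VCaP-CT-ER, a 2.61-fold difference with no overlap (log2 fold change 1.38 ± 0.07, SE, edgeR adjusted p = 1.43e-13). UBE2C, the ubiquitin-conjugating enzyme of the anaphase-promoting complex, rose from 74.4, 81.3 and 82.5 to 152, 153 and 164 CPM, a log2 fold change of 0.92 ± 0.05 (SE, edgeR adjusted p = 1.7e-12). RACGAP1, which had fallen at low testosterone, rose from 87.3, 93.7 and 96.2 to 174, 179 and 188 CPM, a log2 fold change of 0.91 ± 0.05 (SE, edgeR adjusted p = 7.66e-13). CDK1 rose from 87.9, 105 and 107 to 176, 192 and 208 CPM (log2 fold change 0.89), and FOXM1 from 129, 136 and 147 to 254, 259 and 266 (0.87).

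CCNB1, the cyclin partner of CDK1, did not pass the threshold. It had 146, 163 and 167 CPM in VCaP-CT and 151, 161 and 163 in VCaP-CT-ER, overlapping groups with a log2 fold change of -0.06 ± 0.06 (SE, edgeR adjusted p = 0.392). Its paralogue CCNB2 rose by 0.55 on the log2 scale. PLK1 also had overlapping groups, with 63.1, 66.9 and 72.4 CPM against 70.3, 76.3 and 80.1, and its log2 difference was 0.11 (edgeR adjusted p = 0.201). CENPE, BUB3, KIF14 and MKI67 also did not pass the threshold, with log2 fold changes of -0.03, 0.08, 0.12 and 0.17. MKI67 had 177, 180 and 190 CPM in VCaP-CT and 207, 209 and 221 in VCaP-CT-ER, which did not overlap, and its adjusted p of 0.0581 in edgeR fell below 0.05 in several alternative fits, among them DESeq2 at 0.048 and a fit of the 2 sublines alone at 0.00913. BUB3, a checkpoint protein that also docks BUB1 and BUB1B, had 95.2, 103 and 104 CPM against 102, 113 and 115, which overlapped.

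The 2 genes that fell were the leaders of the previous step. KIF20A went from 208, 211 and 218 CPM in VCaP-CT to 133, 140 and 144 in VCaP-CT-ER, a log2 fold change of -0.66 ± 0.05 (SE, edgeR adjusted p = 1.07e-09). CDC25C went from 66.1, 66.5 and 68.4 to 46.7, 47.3 and 48.5 CPM, a log2 fold change of -0.55 ± 0.06 (SE, edgeR adjusted p = 6.1e-08). These 2 genes are neighbours on chromosome 5, with 97550 bases between the end of KIF20A and the start of CDC25C, and genes around them moved the same way. The 10 nearest tested genes on each side of KIF20A had a median log2 fold change of -0.87, with 1 of the 20 above 0, and those around CDC25C, most of them the same genes, had -0.90. Around TOP2A, on chromosome 17, the corresponding median was 0.61, with 16 of 20 neighbours above 0. Across the 45 genes the median of these neighbour medians was -0.05. Each of the 45 lay above the median of its own neighbours, KIF20A and CDC25C included, by 0.21 and 0.35. Why the neighbourhoods of these 3 genes moved was not tested.

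Nearly the whole group was higher in the bicalutamide-resistant subline. In VCaP-CT-BR, 43 of the 45 genes were higher than in VCaP-CT, against a background of 26.1%, and 0 were lower, against 27%. No gene of the group was lower by DESeq2 either, and the lowest log2 fold change in the group was 0.11. The median log2 fold change was 0.84, against -0.02 over all tested genes. CDC25B and STMN1 did not pass the threshold. The comparison shares the VCaP-CT libraries with the ENZ step, so the 2 sets of fold changes are not independent.

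CENPE, a kinesin that carries chromosomes to the spindle equator, rose most. It had 36.5, 39.1 and 41.4 CPM in VCaP-CT and 130, 132 and 165 in VCaP-CT-BR, a 3.6-fold difference without overlap (log2 fold change 1.85 ± 0.09, SE, edgeR adjusted p = 4.79e-13). ASPM, which focuses spindle poles, rose from 49.4, 54.6 and 59.1 to 160, 166 and 187 CPM, a log2 fold change of 1.64 ± 0.08 (SE, edgeR adjusted p = 5.11e-13). KIF20B, a kinesin of late cytokinesis, rose from 26.9, 30.4 and 32 to 80.2, 81.4 and 96.3 CPM, a log2 fold change of 1.51 ± 0.08 (SE, edgeR adjusted p = 7.76e-12). In all 3 genes the first VCaP-CT-BR library was the highest of its group, and the lowest VCaP-CT-BR library was still more than 2-fold above the highest of VCaP-CT.

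CCNB1 rose from 146, 163 and 167 to 328, 342 and 360 CPM (log2 fold change 1.10), MKI67 from 177, 180 and 190 to 329, 355 and 360 (0.91), and AURKA, the spindle pole kinase, from 69, 71.9 and 72.9 to 139, 144 and 149 (1.00). CDK1 rose from 87.9, 105 and 107 to 191, 195 and 221 CPM, also by 1.00 on the log2 scale. AURKB, the kinase of the chromosomal passenger complex, and PLK1 had smaller log2 fold changes than the group median of 0.84. AURKB had 17, 17.8 and 19.5 CPM in VCaP-CT and 20.7, 22.9 and 25.3 in VCaP-CT-BR (0.33), and PLK1 had 63.1, 66.9 and 72.4 against 91.1, 101 and 103 (0.53). CDC20 rose from 67.9, 68 and 71.4 to 111, 113 and 116 CPM (0.70) and PTTG1 from 40.6, 41.9 and 44.2 to 76.2, 78.2 and 82.3 (0.88). STMN1, which destabilises microtubules, had 317, 331 and 338 CPM in VCaP-CT and 354, 355 and 369 in VCaP-CT-BR, which did not overlap, with a log2 fold change of 0.11 ± 0.05 (SE, edgeR adjusted p = 0.0536). STMN1 passed the threshold when libraries were scaled by their totals alone, at 0.13 (edgeR adjusted p = 0.0199). CDC25B had 91.4, 103 and 112 CPM against 107, 113 and 116, overlapping groups with a log2 fold change of 0.11. Each of the 45 genes again lay above the median of its 20 neighbours. That median was 0.41 around CCNB1, 0.39 around CENPE and ASPM, 0.08 around KIF20B and -0.05 around KIF20A and CDC25C.

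**Figure D3:**
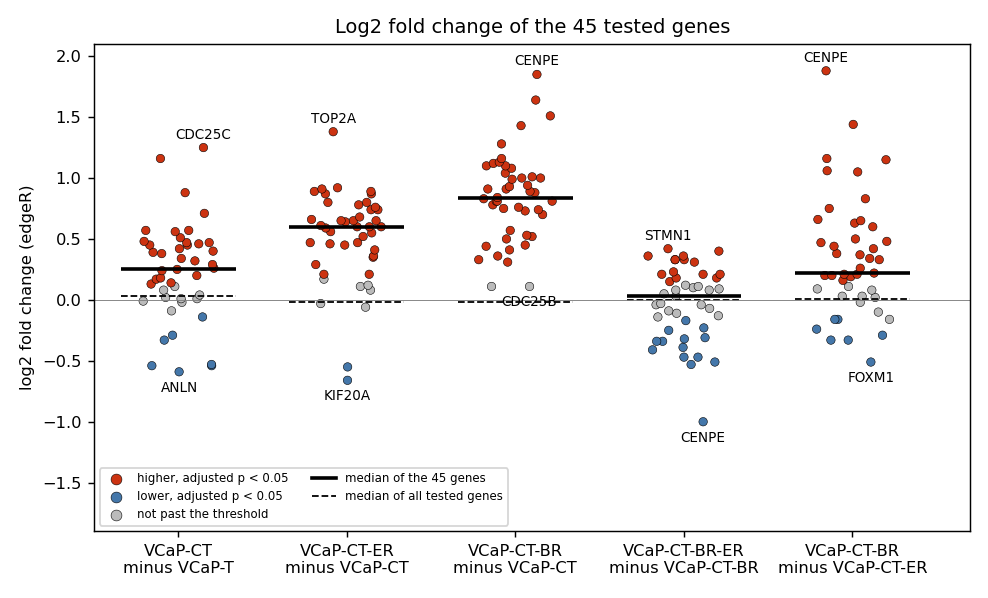
Log2 fold change (y axis, edgeR) of the 45 tested genes in the 5 comparisons between sublines (x axis). Each point is a gene, coloured by its call, thick lines are the median of the 45 genes and dashed lines that of all 19621 tested genes. The thick lines lie at 0.25, 0.60, 0.84, 0.03 and 0.22 from left to right.

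The antiandrogens were next compared with each other, VCaP-CT-BR against VCaP-CT-ER, both made from VCaP-CT. The comparison is between resistant sublines and not between matched doses, since the sources used here give no bicalutamide dose. In VCaP-CT-BR, 29 of the 45 genes were higher, against a background of 28.8%, and 7 were lower, against 27.1%, with a median log2 fold change of 0.22 in the group and 0.01 over all tested genes. All 7 kinesins of the group were higher, as were 8 of its 9 kinetochore and checkpoint genes. Like genes outside the group were more divided. Of 5 tested kinesins, 2 were higher and 2 lower (median -0.09), and of 30 kinetochore genes, 11 were higher and 8 lower (0.03). Of 7 checkpoint and passenger genes outside the group, 5 were higher and 1 lower (0.54). Whether these lists differed from the group was not tested.

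CENPE had 38.7, 39.6 and 40.3 CPM in VCaP-CT-ER and 130, 132 and 165 in VCaP-CT-BR, with a log2 difference of 1.88 ± 0.09 (SE, edgeR adjusted p = 9.21e-14). KIF20A followed, at 133, 140 and 144 against 361, 365 and 382 CPM, a log2 fold change of 1.44 ± 0.05 (SE, edgeR adjusted p = 4.22e-15). KIF14, a kinesin of cytokinesis, had 29.4, 29.6 and 32.1 against 62.1, 65 and 71.5 CPM (1.16), and CCNB1 had 151, 161 and 163 against 328, 342 and 360 (1.15). The neighbours of KIF20A had a median of 0.96 in this comparison, those of CENPE 0.67 and those of CCNB1 0.51.

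The genes that were lower in VCaP-CT-BR belonged to different roles. FOXM1 had 254, 259 and 266 CPM in VCaP-CT-ER and 175, 178 and 182 in VCaP-CT-BR, and its log2 fold change was -0.51 ± 0.06 (SE, edgeR adjusted p = 3.53e-07). AURKB had 27.5, 29.9 and 30.9 against 20.7, 22.9 and 25.3 CPM, and ESPL1, separase, had 147, 159 and 168 against 118, 125 and 126. Both fell by 0.33 on the log2 scale. TOP2A fell by 0.29, with 731, 740 and 789 CPM in VCaP-CT-ER against 570, 609 and 631, in front of STMN1 (-0.24), RACGAP1 and UBE2C (-0.16 each). The neighbours of TOP2A had a median of -0.69 and those of RACGAP1 -0.42. Neighbour medians of the other lowered genes lay between -0.18 (STMN1) and -0.01 (UBE2C). CDK1 did not differ past the threshold, at 176, 192 and 208 against 191, 195 and 221 CPM and a log2 fold change of 0.11 ± 0.07 (SE). The calls for CKAP5 (0.11), KIF11 (0.13) and NUF2 (0.14) were lost without VCaP-CT-BR replicate 1, and without some of the VCaP-CT-ER libraries at 0.12 to 0.17.

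When ENZ followed bicalutamide, about as many genes of the group fell as rose. In VCaP-CT-BR-ER, 15 of the 45 genes were higher than in VCaP-CT-BR, against a background of 21.2%, 14 were lower, against 21.7%, and 16 did not pass the threshold. The median log2 fold change was 0.03, against 0 over all tested genes. All 3 chromosomal passenger genes rose, no kinetochore or checkpoint gene rose and 3 of those fell.

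CENPE, the gene most raised in VCaP-CT-BR, fell most, from 130, 132 and 165 to 65.7, 70.2 and 76.6 CPM, a log2 fold change of -1.0 ± 0.08 (SE, edgeR adjusted p = 3.92e-09). Its level in VCaP-CT-BR-ER still lay above every library of VCaP-CT and VCaP-CT-ER. CDC25C went from 91.6, 94.6 and 105 to 63.1, 68.2 and 69.2 CPM (-0.53), and KIF20B from 80.2, 81.4 and 96.3 to 57.5, 61 and 61.8 (-0.51). ASPM, TTK, KIF14, KIF20A, ECT2, CCNB2, HMMR and AURKA also fell, by between 0.31 and 0.47 on the log2 scale. Neighbours of CENPE had a median of -0.52, with 2 of 20 above 0, and those of CDC25C had -0.45.

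STMN1 rose most, from 354, 355 and 369 to 462, 479 and 497 CPM, a log2 fold change of 0.42 ± 0.05 (SE, edgeR adjusted p = 2.91e-07). INCENP, the scaffold of the chromosomal passenger complex, had 52.8, 62 and 63.5 CPM in VCaP-CT-BR and 71.7, 79.6 and 82.7 in VCaP-CT-BR-ER (0.40), and its kinase partner AURKB had 20.7, 22.9 and 25.3 against 27.1, 28.4 and 32.3 (0.36). NEK2, a centrosome kinase, had 46.6, 47.9 and 48.4 against 58.6, 61.5 and 62.4 CPM (0.36), and FOXM1 had 175, 178 and 182 against 216, 226 and 226 (0.33). The libraries of these 5 genes did not overlap between the sublines. Over the 45 genes, 15 were higher without overlap, against 26% of all tested genes, and 16 were lower without overlap, against 27%. CCNB1 had 328, 342 and 360 against 314, 319 and 320 CPM, not past the threshold at -0.11 ± 0.05 (SE, edgeR adjusted p = 0.122). CDK1 was called higher at 0.21 (edgeR adjusted p = 0.0293), but its groups overlapped (191, 195 and 221 against 218, 235 and 246 CPM), and the call was lost at 0.17 to 0.21 without VCaP-CT-BR replicate 2 or 3 or VCaP-CT-BR-ER replicate 1 or 3.

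Whether the ENZ step differed between the 2 starting sublines was tested as the difference of both steps, (VCaP-CT-BR-ER minus VCaP-CT-BR) minus (VCaP-CT-ER minus VCaP-CT). The 4 sublines enter once each, so the steps share no libraries. The same contrast equals (VCaP-CT-BR-ER minus VCaP-CT-ER) minus (VCaP-CT-BR minus VCaP-CT). It is therefore not independent of the higher levels in VCaP-CT-BR than in VCaP-CT described above. The difference was below 0 for 34 of the 45 genes, against a background of 24.5%, and above 0 for 1, against 25.2%. The median difference was -0.56 in the group and 0.01 over all tested genes. Of the 37 genes that were higher in VCaP-CT-ER than in VCaP-CT, 15 were also higher in VCaP-CT-BR-ER than in VCaP-CT-BR, 10 were lower and 12 did not pass the threshold.

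ASPM differed most. It rose by 0.80 on the log2 scale from VCaP-CT and fell by 0.47 from VCaP-CT-BR, a difference of -1.27 ± 0.11 (SE, edgeR adjusted p = 3.34e-09). TOP2A rose in both steps, by 1.38 and 0.21, and the steps differed by -1.17 ± 0.09 (SE, edgeR adjusted p = 1.37e-09). CENPE and KIF20B each differed by -0.97. KIF20A was the exception in sign, falling by 0.66 from VCaP-CT and by 0.39 from VCaP-CT-BR, a difference of 0.27 ± 0.08 (SE, edgeR adjusted p = 0.00631). The genes around KIF20A had a median difference of 0.39. Those around ASPM had -0.48, around TOP2A -0.45, around CENPE -0.21 and around KIF20B 0. Why these neighbourhoods differed was not tested. The 10 genes without a called difference were CCNB1, CDC25B, CDC25C and PLK1 of mitotic entry, STMN1, CKAP5, BUB1B, BUB3, INCENP and MKI67, with values between -0.11 and 0.07. AURKB was called at -0.30, and its adjusted p rose above 0.05 in 8 of the fits that left out a single library, with values of -0.23 to -0.31. Only 2 of the 45 genes lay above the median of their neighbours in this test.

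**Figure D4:**
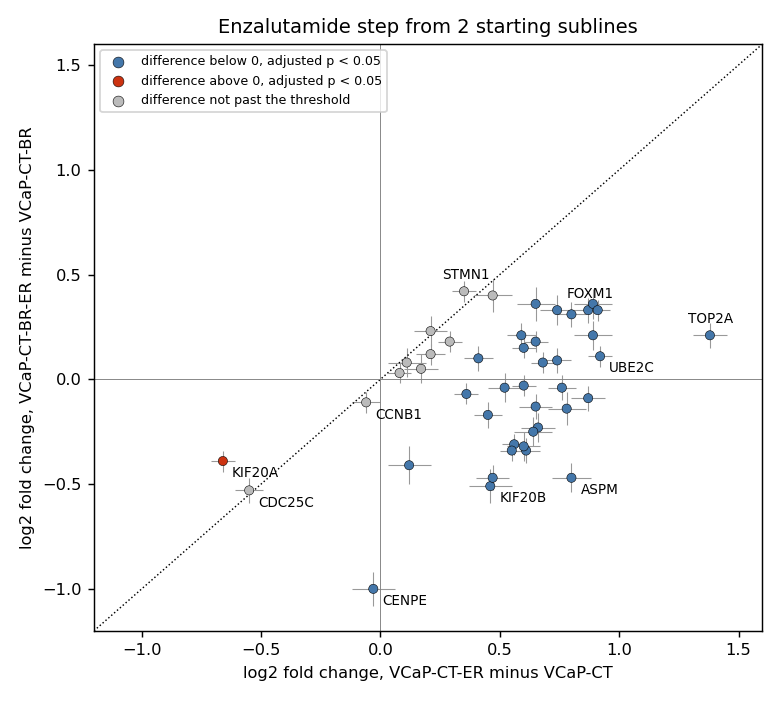
Log2 fold change with ENZ from VCaP-CT (x axis) and from VCaP-CT-BR (y axis) for each of the 45 tested genes, with SE bars. The dotted line marks equal change, and blue points are the 34 genes whose difference was below 0. Most points lie to the right of 0 and below the line, with TOP2A farthest right at 1.38 and CENPE lowest at -1.0.

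The plot of genes beside their neighbours sets each of the 45 genes against the median of the 20 tested genes nearest to it on its chromosome. Over the 45 genes, the median of the neighbour medians was -0.05 in the ENZ step, -0.05 in the bicalutamide step, 0 at low testosterone and -0.02 in the second ENZ step. At low testosterone, 33 of 45 genes lay above their neighbours, and in the second ENZ step 24. At low testosterone the neighbours of KIF20A had a median of 0.79, those of CDC25C and FOXM1 0.77 and those of CCNB1 and CENPE 0.54. Of the 7 genes that fell there, ANLN had a neighbour median of -0.78, CCNB2 -0.54, NDC80 -0.50, RACGAP1 -0.43, CENPA -0.35 and BIRC5 -0.20, while that of CDC25B was 0.25. ANLN (-0.59), CCNB2 (-0.29) and BIRC5 (-0.14) lay above these medians, and NDC80 (-0.54), RACGAP1 (-0.53) and CENPA (-0.54) lay below them, at differences of -0.04, -0.10 and -0.19. CDC25B, at -0.33, lay farther below its neighbours. The neighbours of KIF23, which itself had 0.01, had a median of -0.53. FOXM1 itself, at 0.57, lay below its neighbours, and CENPE at 0.56 differed from them by 0.03.

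**Figure D5:**
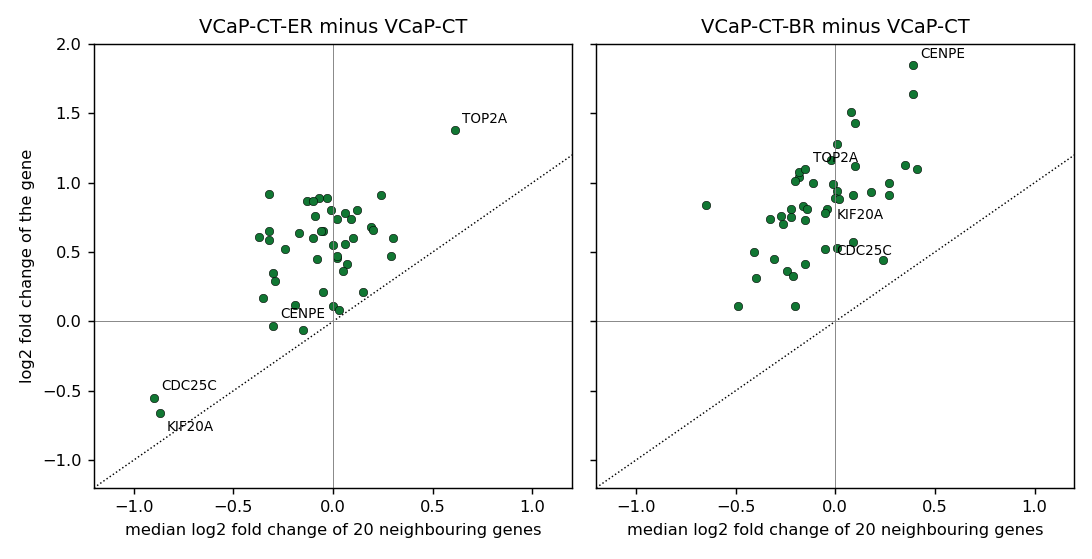
Log2 fold change of each of the 45 genes (y axis) against the median log2 fold change of the 20 nearest tested genes on its chromosome (x axis), for the ENZ step (left) and the bicalutamide step (right). The dotted line marks equality, and all 45 points lie above it in both panels. KIF20A and CDC25C stand apart at the lower left of the ENZ panel, with neighbour medians of -0.87 and -0.90.

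Exon length was set beside the changes, without a test. Across the 45 genes, Spearman's rho between annotated exon length and log2 fold change was 0.26 in the bicalutamide step and 0.26 between the antiandrogens, and between -0.13 and -0.02 in the other 4 contrasts. Over all tested genes it lay between -0.1 and 0.05. These are descriptions across genes measured in the same libraries.

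Genes of the same processes outside the group are set beside it for VCaP-CT-ER and VCaP-CT-BR, each against VCaP-CT. Of all tested genes, 29.6% rose and 31.2% fell with ENZ, and 26.1% rose and 27% fell with bicalutamide. Whether the lists differed from each other or from the group was not tested. Of the 25 G2/M genes of the Seurat cell cycle list that are not in the group, 22 rose and 0 fell with ENZ (median log2 fold change 0.59), and 22 rose and 1 fell with bicalutamide (0.74). Another 29 genes of that list are in the group. Of the 30 tested kinetochore genes outside the group, 23 rose and 3 fell with ENZ (median 0.47, ZWINT highest at 1.08 and CENPH lowest at -0.68), and 24 rose and 2 fell with bicalutamide (0.47, KNL1 highest at 1.35). Cohesin and condensin, which hold and compact chromatids, had 13 of 17 genes higher and 0 lower with ENZ (0.31), and 16 higher and 1 lower with bicalutamide (0.53, SMC4 at 1.32). The subunits and regulators of the anaphase-promoting complex had 10 of 17 genes higher and 1 lower with ENZ (0.21) and 11 higher and 1 lower with bicalutamide (0.26). CDC23, a subunit encoded next to KIF20A and overlapping it on the opposite strand, was the lowest of these with ENZ at -0.63. The 5 tested kinesins outside the group had medians of 0.62 and 0.80, and the 13 regulators of mitotic transcription 0.19 and 0.28.

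Genes of the preceding S phase, from the same Seurat list, were set beside the group. Of 42 tested, 33 rose and 3 fell at low testosterone, with a median log2 fold change of 0.40, where the mitosis and spindle genes had 0.25. With ENZ from VCaP-CT, 22 rose and 5 fell, with a median of 0.22 against 0.60 in the mitosis and spindle genes. With bicalutamide, 34 rose and 1 fell, with 0.36 against 0.84, and in the second ENZ step 19 rose and 5 fell, with 0.11 against 0.03. Of the 25 Seurat G2/M genes outside the group, 12 rose and 4 fell in the second ENZ step (0.14). Of the 30 tested kinetochore genes outside the group, 8 rose and 10 fell in that step (-0.04). Over all tested genes, the shares that rose and fell were 33.1% and 32.2% at low testosterone, 29.6% and 31.2% with ENZ, 26.1% and 27% with bicalutamide, and 21.2% and 21.7% in the second ENZ step. Here too the difference between the lists was not tested. Of 7 further checkpoint and passenger genes, 2 rose and 3 fell in the second ENZ step, with a median log2 fold change of 0.03. TRIP13, an ATPase that inactivates the checkpoint protein MAD2, was highest at 2.78, and MAD2L1BP was lowest at -1.37. MRPL36, the most raised gene of the S phase list in that step, rose by 2.62. The chromosomal neighbours of these genes were not examined, and why they changed was not tested.

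The promoter letters described above were also carried by tested genes outside the group. CCAAT and TTTGAA occurred together in the windows of 469 of them. Of these, 42.2% rose and 25.8% fell with ENZ (median log2 fold change 0.15), and 46.5% rose and 15.8% fell with bicalutamide (0.21). Over all tested genes with a window and outside the group, 32.5% rose and 33.8% fell with ENZ, and 30.1% rose and 30.2% fell with bicalutamide, with medians of -0.02 and -0.01. The difference between the ENZ steps had a median of -0.18 in the 469 genes and 0.01 in all genes with a window. The 469 genes were not separated from other cell cycle genes, and no cause is read from the letters.

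Counting limits apply to some genes. Exons of 15 of the 46 genes overlap another annotated gene, and 14 have near-copies elsewhere in the genome. CENPA overlaps SLC35F6 on its own strand, while FOXM1 overlaps ITFG2, CDC25C overlaps FAM53C and KIF20A overlaps BRD8 and CDC23 on the opposite strand. The near-copies received at most 5.58% of their gene's counts (KIF4B, beside KIF4A), followed by 5.51% for CDC20P1 and 3.54% for UBE2CP5. Summing near-copies with their gene changed none of the counts of calls in any comparison.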

How the data were processed

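Bulk RNA-seq of 5 VCaP sublines (15 libraries) was analysed. Per the labels and methods, the authors aligned reads to GRCh38 with STAR 2.5.4b and counted read pairs per gene with featureCounts 1.6.2 against GENCODE release 28, and they deposited 1 table of raw counts per library, with an exon length per gene taken from the file headers as annotation. By default such counting leaves out multi-mapping and ambiguous pairs, and no strand setting is given, so reads of overlapping genes on opposite strands cannot be told apart. Symbols came from GENCODE release 44 by Ensembl ID (98.9% of IDs matched).

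CPM were computed from library totals. Genes passing filterByExpr (minimum count 10) were fitted over all 15 libraries with edgeR 4.0.16 (TMM factors 0.9844 to 1.0295, glmQLFit and glmQLFTest, subline as the only term), with Benjamini-Hochberg adjustment over 19621 genes and a threshold of 0.05. SE was the log2 fold change divided by the square root of F. The steps were tested on simulated data. Alternatives used other scalings and filters, DESeq2 1.42.0, a replicate block, near-copies summed, the 2 sublines alone and each library left out. R 4.3.3, Seurat 5.3.0 (cell cycle lists), Python 3.11.15 and pandas 2.3.3 were used. The genes, lists and neighbour, promoter and length descriptions were chosen with earlier results of these data known. Genes named with values per library were set by role and by the size of their range or change, and of each other list at most the gene most raised and most lowered was named.

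The labels number the replicates and do not say what separates them. The reporting summary of the study calls them biological replicates and does not say how they were made. No library pair agreed within sampling noise.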

Additional observations from a re-analysis of the deposited data

Results flagged for a closer look

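The ENZ step differed between its starting sublines, VCaP-CT-BR and VCaP-CT, for 35 of the 45 tested genes by the test of the difference itself (edgeR quasi-likelihood test, adjusted p under 0.05 over all tested genes). The difference was below 0 for 34, against 24.5% of all tested genes, and above 0 for 1, against 25.2%. Values are the log2 fold change of VCaP-CT-BR-ER over VCaP-CT-BR minus that of VCaP-CT-ER over VCaP-CT. Of the genes of mitotic entry, CCNB2 differed by -0.89, CDK1 by -0.68 and FOXM1 by -0.54. Of the spindle pole and microtubule genes, ASPM differed by -1.27, HMMR by -0.92, AURKA by -0.88, TPX2 by -0.64, CKAP2 by -0.62, NEK2 by -0.53 and NUSAP1 by -0.49. The kinesins gave -0.97 for KIF20B, -0.79 for KIF23, -0.65 for KIF11, -0.54 for KIF14, -0.45 for KIF2C, -0.38 for KIF4A and, alone above 0, 0.27 for KIF20A. Of the kinetochore and checkpoint genes, CENPE differed by -0.97, NUF2 by -0.96, TTK by -0.94, CENPF by -0.92, NDC80 by -0.89, CENPA by -0.56 and BUB1 by -0.31. The passengers BIRC5 and AURKB gave -0.47 and -0.30, and the anaphase genes UBE2C, PTTG1, CDC20 and ESPL1 gave -0.81, -0.61, -0.43 and -0.41. The midzone genes ECT2, ANLN, PRC1 and RACGAP1 gave -0.95, -0.90, -0.79 and -0.59, and TOP2A gave -1.17. With 3 libraries per subline, no group was large enough for a check of single outlying libraries.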

How the results depend on the processing

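Every count of calls in the group stayed within 1.5 times its value under all alternatives run, and no gene's called direction reversed. Over the fits that left out single libraries, the genes called higher ranged from 25 to 30 at low testosterone, 37 to 38 with ENZ, 43 to 44 with bicalutamide, 13 to 16 in the second ENZ step and 26 to 29 between antiandrogens, and those with a difference between ENZ steps below 0 from 33 to 34. Under DESeq2 these counts were 28, 38, 43, 15, 29 and 34. The replicate block gave 28, 38, 43, 15, 29 and 34. Same-numbered libraries did not deviate together in every pair (correlations from -0.524 to 0.526 over 12720 genes), so the numbers were not taken as pairs. No other scaling moved the median of all genes by more than 0.1. Among single genes, leaving out a library cost 51 calls and added 20, over all contrasts. In the second ENZ step, without VCaP-CT-BR replicate 1, the calls for CKAP2 (-0.12) and NDC80 (-0.19) were lost, and TOP2A (0.18) lost its call without VCaP-CT-BR replicate 2. KIF2C (0.14) and ANLN (-0.18) lost theirs without VCaP-CT-BR-ER replicate 2. BIRC5 (-0.11) lost its call at low testosterone without VCaP-T replicate 3, and CDC25B (0.15) with ENZ without VCaP-CT replicate 3. The cause was not tested. The 5 counts of SPC25 allowed no comparison, and why they were so few was not tested. The other 45 genes had at least 317 counts in every library.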

Other observations

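The 13 regulators of mitotic transcription listed outside the group, members of the MuvB, B-MYB and E2F families, were all tested. At low testosterone 7 rose and 1 fell, with MYBL2 (B-MYB) highest at 0.88 on the log2 scale and LIN37, a MuvB subunit, lowest at -0.53. With ENZ 8 rose and 3 fell, with LIN37 highest at 0.58 and E2F3 lowest at -0.99. With bicalutamide 8 rose and 0 fell, with LIN9 highest at 0.66, and in the second ENZ step 2 rose and 4 fell, with LIN54 lowest at -0.40. The median log2 fold changes of the list were 0.19, 0.19, 0.28 and -0.06 in these 4 comparisons. Over all tested genes, the shares that rose and fell were 33.1% and 32.2%, 29.6% and 31.2%, 26.1% and 27%, and 21.2% and 21.7% in the same order, so that the 2 of 13 higher in the second ENZ step were not above the background.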
